A study of Mus musculus with 4 samples.

Results

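The list of interferon-stimulated and antiviral genes holds 47 mouse genes, from the interferon receptors through the kinases and transcription factors they act on to the antiviral proteins, DNA-binding proteins and chemokines that interferon switches on. The members were listed by name and each was looked up in a table of transcript levels of mouse embryonic fibroblasts (MEFs), which holds 23005 genes and unnamed transcripts. Of the 47, 46 had a row, and Cxcl11 is not analysed here. Where a gene had several transcript entries, as 7 members did, the entry with the highest mean level was used. A level is given in RPKM, which is reads scaled to the transcript's length and to the library's total. Members that reached 1 RPKM in at least 1 library are called measured, which 28 were. The other 18 stayed below 1 RPKM throughout.

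Interferons bind receptors on the cell surface, whose attached Janus kinases (JAKs) phosphorylate STAT proteins. Type I interferon leads to a complex of STAT proteins with Irf9 that binds the interferon-stimulated response element (ISRE), and interferon gamma leads to STAT dimers that bind the gamma-activated site (GAS). Tumour necrosis factor (TNF) works mainly through another factor, NF-kB, and a number of genes, Cxcl10 and Irf1 among them, are known to be reached from both sides. Fibroblasts keep the receptors and kinases at hand and raise the antiviral proteins when interferon or viral nucleic acid is met.

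There were 4 groups of cells: Mll1-/- MEFs with TNF, Mll1-/- MEFs with control solution, Mll1+/+ (wild-type) MEFs with TNF, and wild-type MEFs with control solution. TNF was given at 10 ng/ml for 4 hr, by the sample characteristics and the design text, while the treatment protocol has another unit for the same figure. Mll1, now Kmt2a, encodes a histone methyltransferase, and the series' title names its part in transcription activated by TNF as the question. Each group is 1 library made from cells of 3 mixed treatments, so no spread between cultures could be measured and no test is given. Neither the strain nor the number of embryos or lines behind each genotype is given in the sources at hand. Genotype and any other difference between the lines therefore cannot be told apart.

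The totals recovered from the RPKM values were 19306506 reads for Mll1-/- with TNF, 20081869 for the Mll1-/- control, 27977248 for wild type with TNF and 27728647 for the wild-type control. Reads summed over all transcript entries came to 1.67 to 1.77 times these totals, so a read can be counted on several entries. The fibroblast protein gene Vim stood between 2097 and 2418 RPKM in the 4 libraries, but the lines differed in several fibroblast markers. Of 9 measured, 5 were higher in Mll1-/- cells in each condition (median log2 of the 9: 1.67 with TNF, 1.68 without), and S100a4 was lower without TNF (log2 -1.14). By the same 2-fold rule, given below, 6.71% of all measured genes were higher in Mll1-/- cells with TNF and 7.11% without. S100a4 is short, at 513 bases, and genes of 24 to 592 bases had a median log2 of -0.53 for genotype without TNF and -0.17 with TNF. Col3a1, Pdgfra and Dcn, 3 of the 5, were measured through Mll1-/- cells only and so had to stand higher there. The collagen genes Col1a1 and Col1a2 were 3.19-fold and 6.57-fold higher with TNF, and Col3a1 and the growth factor receptor gene Pdgfra were 79.7-fold and 14.5-fold higher. The matrix gene Dcn had 15.2 and 9.16 RPKM in the Mll1-/- libraries with TNF and without, against 0 in both wild-type libraries. The part of these differences in the genotype ratios below was not tested. Of 10 leukocyte markers 6 had a row and only Cd14 was measured, with 11.9 and 9.28 RPKM in the Mll1-/- libraries and 25.6 and 23.2 in the wild-type libraries. No endothelial or epithelial marker reached 1 RPKM. The endothelial marker Cdh5 came closest, with 0.866 and 0.748 RPKM in wild-type cells with TNF and without, against 0.116 and 0.149 in Mll1-/- cells. Kmt2a itself had 1.66 and 2.02 RPKM in the libraries labelled Mll1-/- with TNF and without, against 2.11 and 1.85 in those labelled wild type. The label is thus not visible in the level of the whole transcript, and a deletion of part of the gene need not lower that level. In bulk RNA, fewer cells of a type and less RNA per cell cannot be told apart.

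**Figure D1:**
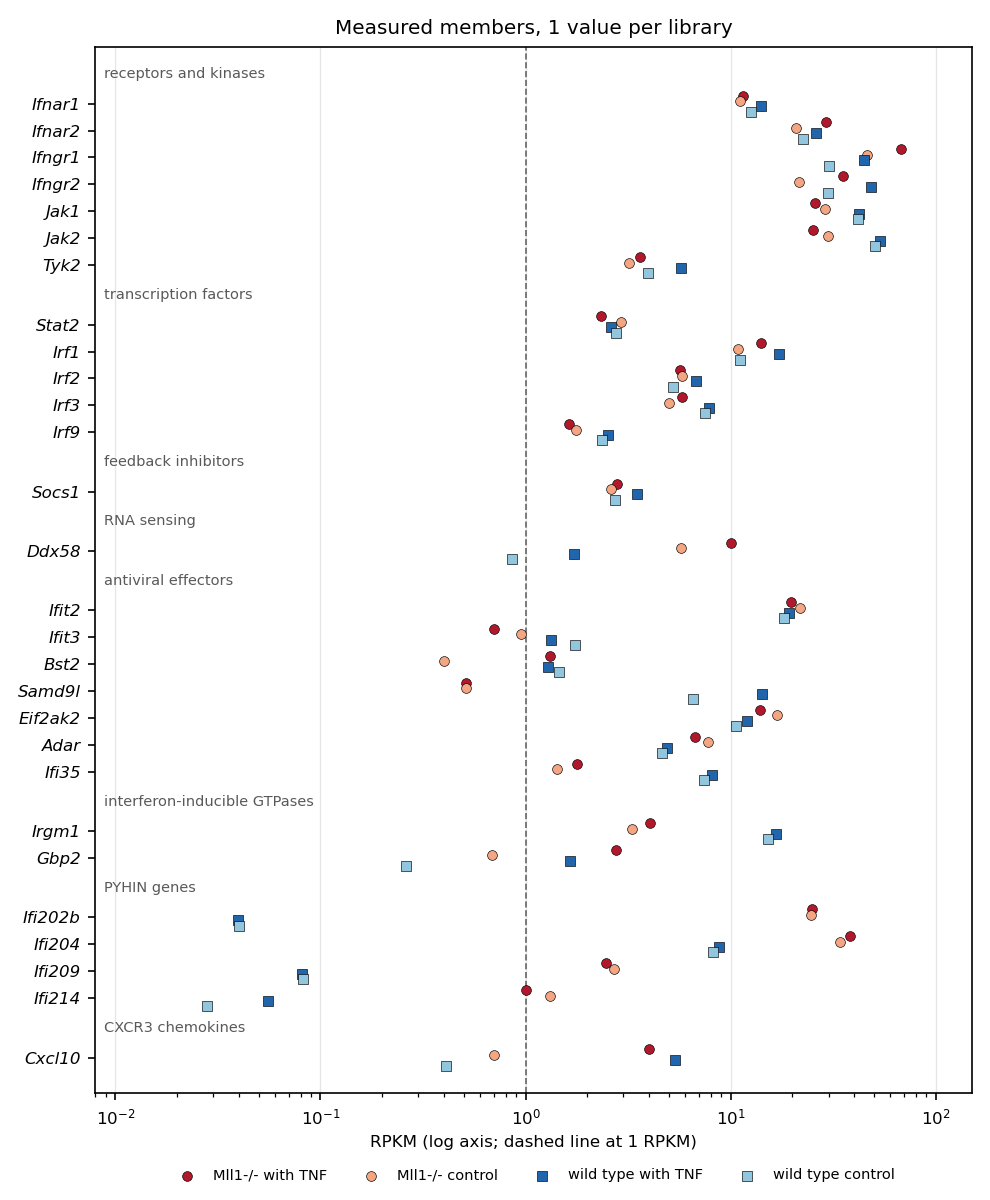
RPKM of the 28 measured members in the 4 libraries, grouped by role, on a log axis, with 1 point per library. Ifi202b, Ifi204, Ifi209, Ifi214 and Ddx58 lie higher in both Mll1-/- libraries, Samd9l, Ifi35 and Irgm1 lie higher in both wild-type libraries, and Cxcl10 and Gbp2 separate the TNF libraries from the controls.

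Among the members 3 patterns stood out, and a number of members fit none of them. Of the 15 antiviral effector genes 8, Isg15, Ifit1 and Rsad2 among them, stayed below 1 RPKM in every library, while Ifit2, Eif2ak2 and Adar were well above it in all 4. A few members, led by the chemokine gene Cxcl10 and the GTPase gene Gbp2, were higher with TNF in both genotypes. Others, led by the DNA-binding protein genes of the PYHIN family and by Samd9l, Ifi35 and Irgm1, differed several-fold between the genotypes whether or not TNF was given. A member is counted as higher or lower when its ratio of (RPKM + 0.5) is at least 2-fold, which is 1 on the log2 scale and understates the change of genes with few reads. Each fold below is the ratio of reads per library total, and the range after it is a 95% exact binomial (Clopper-Pearson) interval, called a counting interval, which covers counting error only.

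In the cells labelled Mll1-/-, 3 of the 28 measured members were higher with TNF and 0 were lower, where 0.688% of all 14386 measured genes were higher and 0.16% lower. In wild-type cells 3 members were higher with TNF and 0 lower, where 0.521% of all measured genes were higher and 0.0556% lower. Without TNF, 5 members were higher in Mll1-/- cells than in wild-type cells and 4 were lower, against 7.11% and 7.99% of all measured genes. With TNF, 5 were higher and 4 lower, against 6.71% and 4.5%. The members higher with TNF were Cxcl10, Gbp2 and Bst2 in Mll1-/- cells, and Cxcl10, Gbp2 and Samd9l in wild-type cells. Those higher in Mll1-/- cells were Ifi202b, Ifi204, Ifi209, Ifi214 and Ddx58 in each condition. Those lower were Samd9l, Irgm1 and Ifi35 in each condition, with Jak2 added with TNF and Bst2 without. The middle 95% of all measured genes leaves 2.5% on each side. Above it lay 4 members for TNF in Mll1-/- cells, 8 for TNF in wild-type cells and 4 for genotype in each condition, and below it 0, 0 and 3 in each condition. The 8 in wild-type cells were Cxcl10, Gbp2, Samd9l, Ddx58, Ifngr2, Irf1, Ifngr1 and Tyk2, whose log2 ratios ran from 2.70 down to 0.48 where the middle 95% ended at 0.45. The counting interval lay above 1 for 9 members and below 1 for 6 in Mll1-/- cells with TNF, against 26.5% and 22.2% of all measured genes. In wild-type cells with TNF it lay above 1 for 14 members and below 1 for 0, against 15.8% and 19.8%. For genotype it lay above 1 for 10 and below 1 for 14 with TNF (30.8% and 38.8%), and above 1 for 10 and below 1 for 12 without (33.6% and 42.5%).

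The median log2 ratios of the 28 members were 0.06 and 0.13 for TNF in Mll1-/- and wild-type cells, beside 0.02 and -0.02 over all measured genes. For genotype they were -0.04 without TNF and -0.26 with TNF, beside -0.07 and -0.05. A member could be measured through a single genotype, as 3 were through Mll1-/- cells (Ifi202b, Ifi209, Ifi214) and 2 through wild-type cells (Ifit3, Samd9l). Such members had to stand higher there, so the counts describe the list and support nothing further. Just inside the limit of 1 RPKM were Ifi214 (1.31 at its highest), Bst2 (1.46) and Ifit3 (1.73), and just outside was Gbp3 (0.903).

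The 8 antiviral effectors below 1 RPKM were Isg15, Ifit1, Rsad2, Mx1, Mx2, Oasl2, Rtp4 and Parp14, and the 7 measured ones, which include Ifit2 with 1504 to 2132 reads and Ifit3 with 27 to 96, are described further on. Isg15, which encodes a ubiquitin-like protein, had 1 read in Mll1-/- cells with TNF and 0 in their control, against 9 in wild-type cells with TNF and 6 in their control. Ifit1, whose product binds viral RNA, had 5 and 0 reads in the Mll1-/- libraries with TNF and without, against 8 and 5 in the wild-type libraries. Rsad2, the gene of viperin, which makes an antiviral nucleotide, had 2 and 1 reads in Mll1-/- cells, against 4 and 1 in wild-type cells. Mx1 and Mx2, genes of antiviral GTPases, had 6 to 10 reads and 0 to 1 read in the 4 libraries. The transcription factor gene Irf7, which carries the type I interferon response forward, had 2 and 1 reads in Mll1-/- cells with TNF and without, against 6 and 4 in wild-type cells. A count of 0 allows up to 3 reads in a library, so the levels of these 6 are near or at what this depth can show. The wild-type libraries had the larger totals, so read counts here and in the next paragraph do not compare directly between the genotypes.

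Summed over the 18 members below 1 RPKM, there were 101 reads in Mll1-/- cells with TNF and 55 in their control, against 184 in wild-type cells with TNF and 99 in their control. Scaled to length and library total, the summed levels lay closer, at 2.09 and 1.11 RPKM in Mll1-/- cells against 2.53 and 1.48 in wild-type cells. A few genes carried these sums. Gbp3, of a GTPase family that attacks the vacuoles of intracellular pathogens, had 46 reads in Mll1-/- cells with TNF and 4 in their control, a 12.0-fold ratio (counting interval 4.37 to 45.8), against 8 and 3 reads in wild-type cells. Parp14, an ADP-ribosyltransferase gene, had 2 and 0 reads in Mll1-/- cells with TNF and without, against 31 and 5 in wild-type cells, where the ratio for TNF was 6.14 (2.37 to 20.2). Igtp and Irgm2, which encode immunity-related GTPases, had 5 and 8 reads in Mll1-/- cells with TNF and 3 and 6 in their control, against 24 and 37 in wild-type cells with TNF and 10 and 26 in their control. Dhx58, a regulator of RNA sensing, had 9 and 22 reads in Mll1-/- cells with TNF and without, against 19 and 20 in wild-type cells. Ifih1, which encodes the sensor of long double-stranded RNA, had 0 reads in both Mll1-/- libraries, against 10 and 3 in wild-type cells with TNF and without. The remaining 6 were Irf5, which controls inflammatory cytokine genes, Usp18, whose product removes Isg15 from proteins, the ubiquitin ligase gene Trim25, Oasl2 of the oligoadenylate synthetase family, Rtp4 and the chemokine gene Cxcl9, and none had over 7 reads in any library. Gbp and Irg genes are close copies of each other, and reads that could belong to several of them make their counts uncertain.

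**Figure D2:**
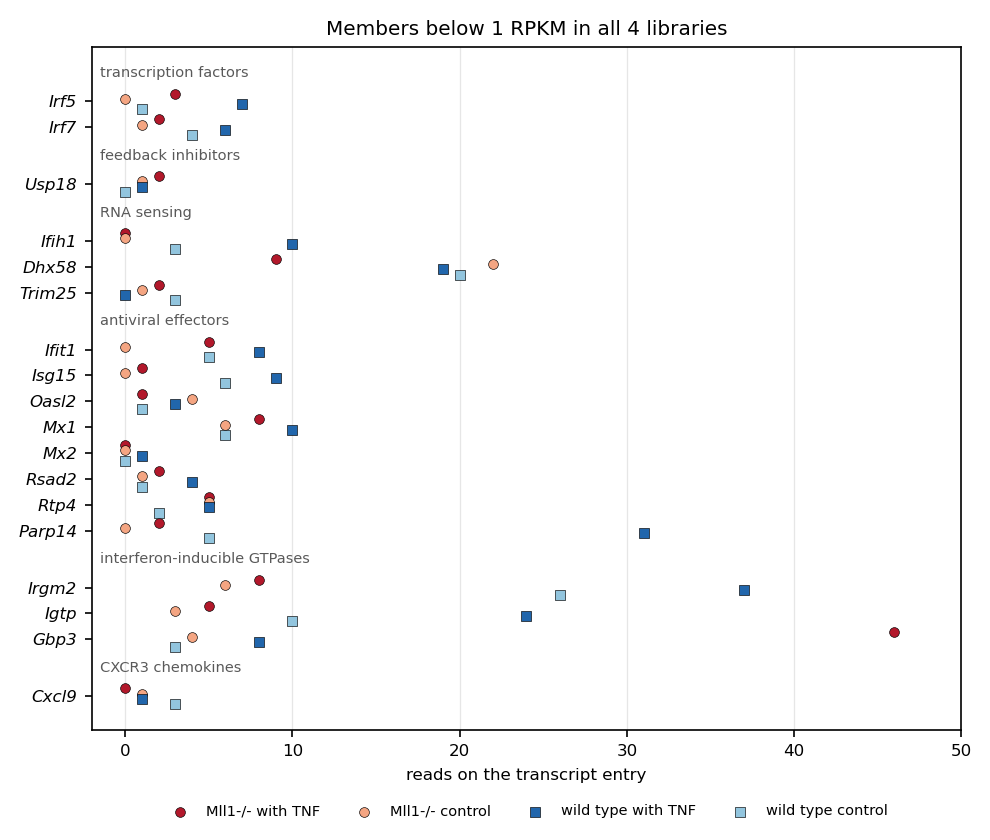
Reads on the transcript entry of each of the 18 members below 1 RPKM, by library, on a linear axis, with the points of a gene set slightly apart in height. Most points lie at 10 reads or fewer, and Gbp3 in Mll1-/- cells with TNF stands alone at 46 reads.

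The interferon genes themselves gave no sign of strong expression. Of 10 interferon genes looked up, 3 had a row and 1 was measured. Ifnb1, the type I interferon gene of fibroblasts, had 1 read in Mll1-/- cells with TNF and 0 in the other 3 libraries. Ifnk had 2 reads in each Mll1-/- library and 0 in each wild-type library. Ifnz stood at 0.461 and 0.511 RPKM in Mll1-/- cells with TNF and without, against 1.47 and 1.53 in wild-type cells (log2 -1.03 with TNF and -1.01 without). It was measured through wild-type cells only and so had to stand lower in Mll1-/- cells. By the 2-fold rule 4.5% of all measured genes were lower in Mll1-/- cells with TNF and 7.99% without.

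All 7 receptor and kinase genes were measured, and the interferon gamma receptor pair was higher with TNF in both genotypes by much the same ratio. Ifngr1, the ligand-binding chain, had 67.9 RPKM in Mll1-/- cells with TNF and 46.3 in their control, against 44.7 in wild-type cells with TNF and 30.2 in their control. These are ratios of 1.47 (counting interval 1.38 to 1.56) in Mll1-/- cells and 1.48 (1.39 to 1.57) in wild-type cells. Ifngr2, the signalling chain, had 35.3 and 21.6 RPKM in Mll1-/- cells with TNF and without, against 48.4 and 29.8 in wild-type cells, ratios of 1.64 (1.504 to 1.78) and 1.62 (1.53 to 1.72). The difference between the genotypes in log2 response was -0.01 for Ifngr1 (interval -0.13 to 0.11) and 0.01 for Ifngr2 (-0.14 to 0.16). The chains differed in opposite directions between the genotypes, with Ifngr1 higher in Mll1-/- cells (log2 0.60 with TNF, 0.61 without) and Ifngr2 lower (-0.45 and -0.46). Both stayed short of the 2-fold rule in every comparison.

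The type I receptor genes differed less. Ifnar1 stood at 11.5 and 11.1 RPKM in Mll1-/- cells with TNF and without, against 14.0 and 12.6 in wild-type cells. Ifnar2 stood at 29.2 and 20.7 RPKM in Mll1-/- cells, against 25.9 and 22.5 in wild-type cells, ratios for TNF of 1.41 and 1.15.

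Jak2, the kinase of the interferon gamma receptor, was the member of this set with the largest difference between the genotypes. It had 25.3 RPKM in Mll1-/- cells with TNF and 29.7 in their control, against 53.2 in wild-type cells with TNF and 50.6 in their control. The level in Mll1-/- cells was lower than in wild-type cells by 2.11-fold with TNF (2.01 to 2.21) and by 1.70-fold without (1.63 to 1.78). Jak1, which serves both kinds of receptor, had 25.9 and 29.0 RPKM in Mll1-/- cells, against 42.4 and 41.7 in wild-type cells (log2 -0.70 with TNF and -0.52 without). Tyk2, the kinase of the type I receptor, had 3.63 and 3.19 RPKM in Mll1-/- cells and 5.74 and 3.97 in wild-type cells. All 3 kinases were thus lower in Mll1-/- cells in both conditions, and their counting intervals left out 1. The interval lay below 1 for 38.8% of all measured genes with TNF and for 42.5% without.

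The transcription factors stood at low to moderate levels, and Irf1 was the one with the largest ratio for TNF. Irf1, which activates interferon-stimulated genes and is itself a target of STAT and NF-kB, had 14.1 RPKM in Mll1-/- cells with TNF and 10.9 in their control, against 17.2 in wild-type cells with TNF and 11.1 in their control. The ratios were 1.30 (1.15 to 1.47) and 1.55 (1.41 to 1.71). Irf2, which competes with Irf1, had 5.65 and 5.77 RPKM in Mll1-/- cells, against 6.76 and 5.21 in wild-type cells. Irf3, which is activated by nucleic acid sensing without new synthesis, had 5.79 and 5.002 RPKM in Mll1-/- cells, against 7.81 and 7.47 in wild-type cells. Stat2 and Irf9, parts of the complex that binds the ISRE, lay between 2.34 and 2.92 RPKM and between 1.64 and 2.52 RPKM over the 4 libraries. Socs1, whose product blocks the Janus kinases, lay between 2.61 and 3.49 RPKM. None of these 6 reached the 2-fold rule in any comparison.

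Cxcl10 and Gbp2 were the members higher with TNF by the 2-fold rule in both genotypes. Cxcl10, a ligand of the T-cell receptor CXCR3, had 4.00 RPKM in Mll1-/- cells with TNF and 0.703 in their control, against 5.38 in wild-type cells with TNF and 0.407 in their control. The ratio was 5.69 (3.26 to 10.6) in Mll1-/- cells and 13.2 (7.36 to 26.1) in wild-type cells. The control levels rest on 15 reads in Mll1-/- cells and 12 in wild-type cells. In log2 reads the response was lower by 1.22 in Mll1-/- cells, with an interval for the difference of -2.38 to -0.06. On the log2(RPKM + 0.5) scale that difference was -0.79, short of the 2-fold rule. Gbp2 had 2.75 RPKM in Mll1-/- cells with TNF and 0.685 in their control, against 1.65 in wild-type cells with TNF and 0.263 in their control. Its ratio was 4.01 (2.73 to 6.03) in Mll1-/- cells and 6.28 (3.80 to 11.0) in wild-type cells, and the interval of the difference in log2 reads, -1.55 to 0.25, holds 0. Cxcl9, the close relative of Cxcl10 that interferon gamma induces, had at most 3 reads in any library.

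**Figure D3:**
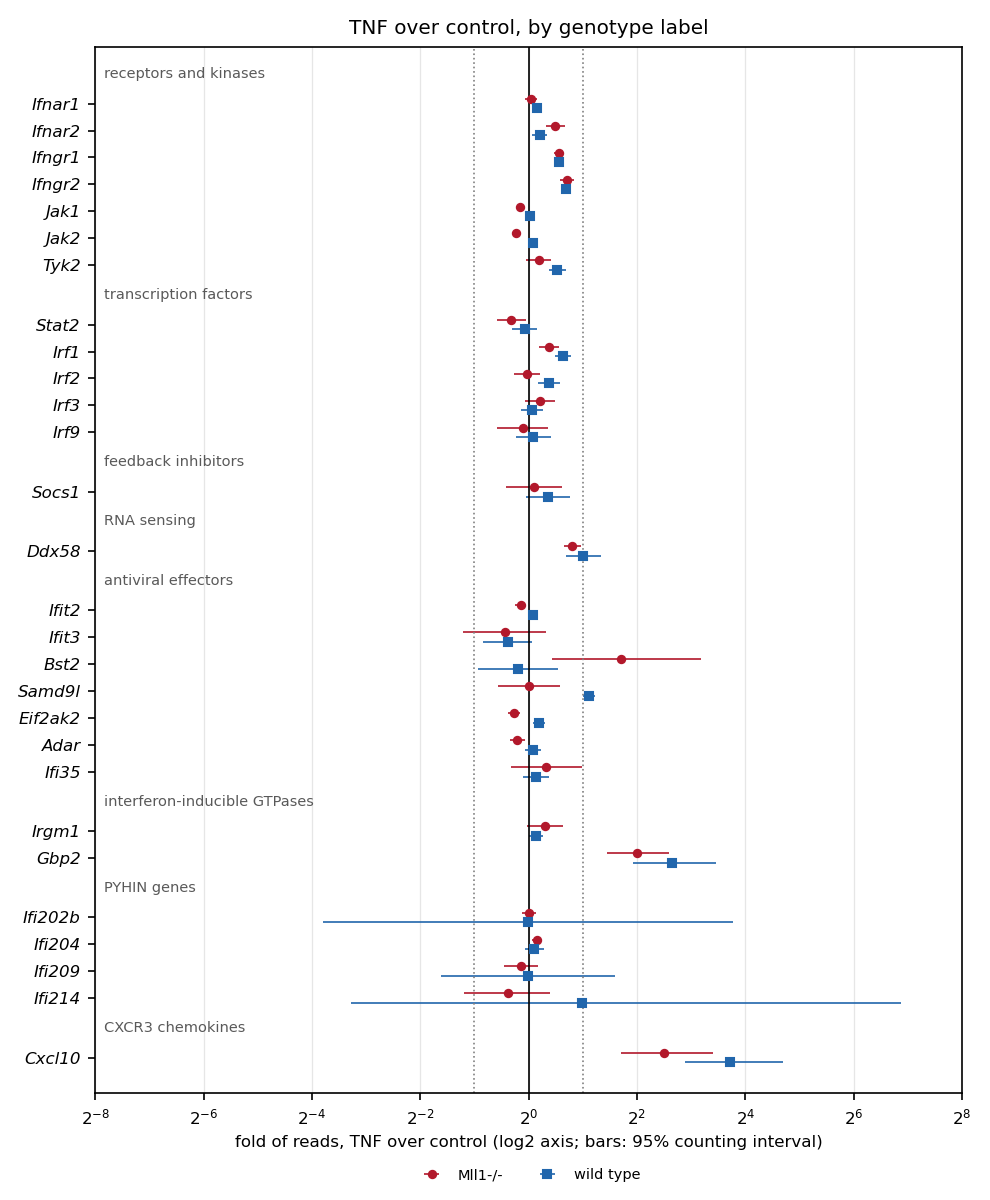
Ratio of reads per library total, TNF over control, for the 28 measured members on a log2 axis, with Mll1-/- cells as circles and wild-type cells as squares, and bars for the 95% counting interval. Cxcl10 and Gbp2 lie right of the dotted 2-fold line in both genotypes, Samd9l lies there in wild-type cells, and the Ifngr1 and Ifngr2 points of the genotypes nearly coincide.

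The promoters of Cxcl10, Gbp2, Irf1, Isg15 and Samd9l are shown because motifs of interferon-driven and NF-kB-driven factors can be looked for in them. They are RefSeq windows on GRCm38.p6, 250 bases before to 50 after the start of the gene, in lower case from 5′ to 3′, with motif matches in capitals. The motifs searched on both strands were the ISRE core consensus, whose matches can be read in the capitals, the GAS (TTCNNNGAA) and the NF-kB consensus. Cxcl10 lies at chr5:92348840-92349139 on the minus strand and holds 1 ISRE, then 3 NF-kB matches, of which the last 2 overlap. Gbp2 lies at chr3:142620413-142620712 on the plus strand with 1 ISRE and 1 NF-kB match. Irf1 lies at chr11:53769764-53770063 on the plus strand with 1 GAS and 1 NF-kB match. Isg15, nearly silent here, lies at chr4:156200769-156201068 on the minus strand with 3 overlapping ISRE matches. Samd9l, described below, lies at chr6:3399522-3399821 on the minus strand and has none of the 3 motifs in this window.
Cxcl10: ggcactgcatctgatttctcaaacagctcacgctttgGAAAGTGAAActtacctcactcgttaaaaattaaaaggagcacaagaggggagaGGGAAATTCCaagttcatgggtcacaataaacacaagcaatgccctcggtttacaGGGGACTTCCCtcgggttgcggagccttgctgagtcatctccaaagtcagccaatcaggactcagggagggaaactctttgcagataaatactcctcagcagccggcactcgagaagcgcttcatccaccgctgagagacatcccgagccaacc
Gbp2: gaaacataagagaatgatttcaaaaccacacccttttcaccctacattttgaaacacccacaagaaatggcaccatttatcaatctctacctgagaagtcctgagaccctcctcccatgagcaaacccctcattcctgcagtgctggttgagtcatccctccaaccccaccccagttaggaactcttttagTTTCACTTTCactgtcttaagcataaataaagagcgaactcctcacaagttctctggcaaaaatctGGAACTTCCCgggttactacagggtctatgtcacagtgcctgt
Irf1: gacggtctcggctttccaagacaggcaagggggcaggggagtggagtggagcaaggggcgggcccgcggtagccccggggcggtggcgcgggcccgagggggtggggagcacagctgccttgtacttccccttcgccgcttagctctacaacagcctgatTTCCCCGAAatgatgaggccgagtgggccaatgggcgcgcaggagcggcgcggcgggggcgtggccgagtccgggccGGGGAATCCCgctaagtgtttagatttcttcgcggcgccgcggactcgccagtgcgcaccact
Isg15: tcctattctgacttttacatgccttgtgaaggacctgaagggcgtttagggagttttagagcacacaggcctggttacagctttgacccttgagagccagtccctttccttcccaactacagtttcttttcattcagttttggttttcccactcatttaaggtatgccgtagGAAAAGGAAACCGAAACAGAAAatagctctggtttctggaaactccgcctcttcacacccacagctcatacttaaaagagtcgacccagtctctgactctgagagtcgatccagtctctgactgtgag
Samd9l: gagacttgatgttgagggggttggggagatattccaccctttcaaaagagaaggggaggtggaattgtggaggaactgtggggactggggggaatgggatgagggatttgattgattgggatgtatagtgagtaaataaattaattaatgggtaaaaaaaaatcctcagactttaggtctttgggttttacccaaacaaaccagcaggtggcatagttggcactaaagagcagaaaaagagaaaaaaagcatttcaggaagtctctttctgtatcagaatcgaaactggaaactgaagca

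Of the 47 members, 39 had a promoter window in the RefSeq table, with 45 windows in all. An ISRE stood in 18 of these 45 windows, and in 3.44% of all 32851 windows of the table. A GAS stood in 12 (8.3% of all windows) and an NF-kB match in 8 (8.46%). Both an ISRE and an NF-kB match stood in 4 member windows, those of Cxcl10, Gbp2, Bst2 and Irf2, and in 0.247% of all windows. The other 14 windows with an ISRE held no NF-kB match. They belong to Ddx58, Gbp3, Isg15, Ifit1, Ifit3, Rsad2, Ifih1, Irgm1, Irgm2, Igtp, Ifi214, Eif2ak2, Socs1 and Stat2. A match is a description of the letters and does not show that a factor binds there.

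Among the RNA sensors, Ddx58, which encodes RIG-I, the sensor of short viral RNA ends, was the one measured. It had 10.0 RPKM in Mll1-/- cells with TNF and 5.70 in their control, against 1.73 in wild-type cells with TNF and 0.861 in their control. Ddx58 was higher in Mll1-/- cells by 5.78-fold with TNF (5.01 to 6.69) and by 6.62-fold without (5.42 to 8.15). TNF gave ratios of 1.75 (1.58 to 1.95) in Mll1-/- cells and 2.01 (1.60 to 2.52) in wild-type cells.

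Among the 15 antiviral effectors 7 were measured, and Samd9l separated the genotypes most. Samd9l, a restriction factor of poxviruses in the mouse, had 0.514 RPKM in Mll1-/- cells with TNF and 0.512 in their control (53 and 55 reads), against 14.3 in wild-type cells with TNF and 6.55 in their control (2131 and 970 reads). The level in Mll1-/- cells was 27.7-fold lower with TNF (21.1 to 37.2) and 12.8-fold lower without (9.73 to 17.1). TNF gave a ratio of 1.002 (0.674 to 1.49) in Mll1-/- cells and of 2.18 (2.02 to 2.35) in wild-type cells. The difference in log2(RPKM + 0.5) response was -1.06, and in log2 reads -1.12 (-1.67 to -0.56). By the 2-fold rule, 1 member had a larger response in Mll1-/- cells (Bst2) and 1 a smaller one (Samd9l), where 0.758% and 0.424% of all measured genes did. Outside the middle 95%, which leaves 2.5% on each side, 1 member had a larger response and 2 a smaller one.

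Ifi35, an interferon-induced leucine zipper protein gene, had 1.79 and 1.43 RPKM in Mll1-/- cells with TNF and without, against 8.09 and 7.37 in wild-type cells. It was 4.52-fold lower in Mll1-/- cells with TNF (3.32 to 6.29) and 5.16-fold lower without (3.68 to 7.42). Its TNF ratio was small in both genotypes, with log2 values of 0.25 and 0.13. Bst2, the gene of tetherin, which holds budding virus at the cell surface, had 22 reads in Mll1-/- cells with TNF and 7 in their control, against 31 in wild-type cells with TNF and 35 in their control. At 1.32 and 0.403 RPKM in Mll1-/- cells, against 1.28 and 1.46 in wild-type cells, only the Mll1-/- control stood apart from the rest. Its ratio for TNF was 3.27 (1.35 to 9.06) in Mll1-/- cells and 0.878 (0.523 to 1.47) in wild-type cells, and the call falls away with a pseudocount of 1 RPKM.

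The other 4 measured effectors differed by less than the 2-fold rule in every comparison, though their counting intervals for genotype without TNF left out 1. That interval lay above 1 for 33.6% of all measured genes and below 1 for 42.5%, so leaving out 1 was common. Ifit2, of the RNA-binding Ifit family, stood at 19.7 and 21.8 RPKM in Mll1-/- cells with TNF and without, against 19.3 and 18.2 in wild-type cells, while Ifit1 had at most 8 reads in any library. Ifit3 had 0.700 and 0.947 RPKM in Mll1-/- cells, against 1.32 and 1.73 in wild-type cells, and reads shared with its near copy Ifit3b make it uncertain. Eif2ak2, which encodes PKR, the kinase that halts translation on double-stranded RNA, had 14.0 and 16.8 RPKM in Mll1-/- cells, against 12.1 and 10.6 in wild-type cells. Adar, which edits adenosine in double-stranded RNA, had 6.70 and 7.73 RPKM in Mll1-/- cells, against 4.87 and 4.61 in wild-type cells. Without TNF, Eif2ak2 was 1.58-fold higher in Mll1-/- cells (1.47 to 1.71), Adar was 1.68-fold higher (1.52 to 1.85) and Ifit3 was 1.83-fold lower (1.24 to 2.74).

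Irgm1, an immunity-related GTPase gene that governs the related GTPases at pathogen vacuoles, had 4.05 RPKM in Mll1-/- cells with TNF and 3.29 in their control, against 16.7 in wild-type cells with TNF and 15.2 in their control. Irgm1 was thus 4.13-fold lower in Mll1-/- cells with TNF (3.51 to 4.88) and 4.63-fold lower without (3.89 to 5.55). The relatives Irgm2 and Igtp, both below 1 RPKM and described above by their reads, were lower in Mll1-/- cells with TNF by 3.19-fold (1.46 to 7.93) and 3.31-fold (1.24 to 11.1). Without TNF Irgm2 was 3.14-fold lower (1.26 to 9.32), while the interval of the 2.41-fold ratio of Igtp, 0.622 to 13.7, holds 1. The summed level of the leukocyte markers was also lower in Mll1-/- cells, at 12.3 and 9.56 RPKM with TNF and without, against 25.8 and 23.7 in wild-type cells. Nearly all of that was Cd14, the only one measured. Csf1r, Itgam, Fcer1g, Cd52 and Lyz2 had at most 8 reads each in any library, too few to give a direction. Any link of the lower Cd14 to the lower Samd9l, Ifi35 and Irgm1 was not tested. Gbp2 went the other way and was 1.67-fold higher in Mll1-/- cells with TNF (1.29 to 2.16).

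**Figure D4:**
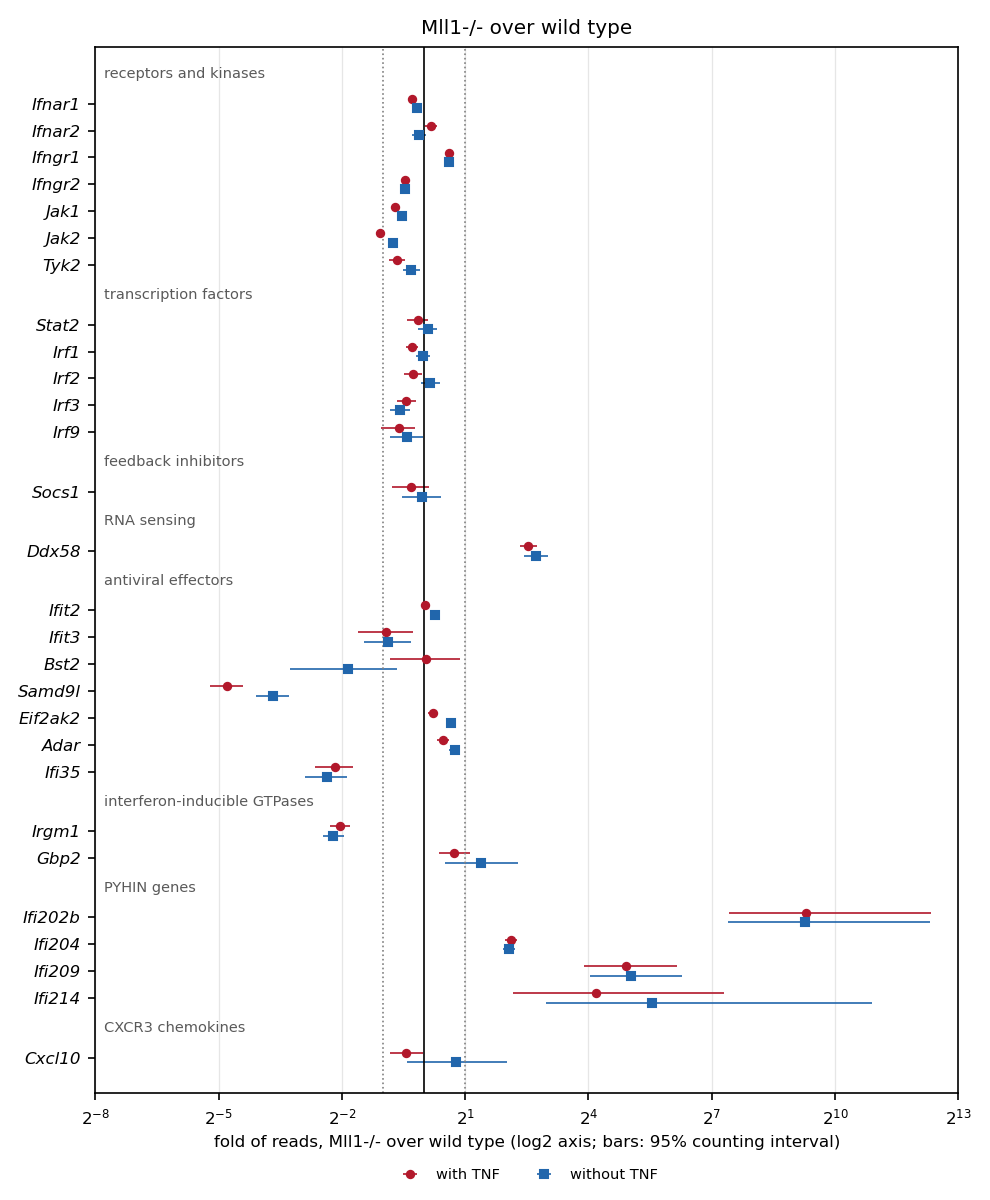
Ratio of reads per library total, Mll1-/- over wild type, for the 28 measured members on a log2 axis, with TNF and without, and bars for the 95% counting interval. The 4 PYHIN genes and Ddx58 lie right of the dotted 2-fold line in both conditions, and Samd9l, Ifi35 and Irgm1 lie left of it in both.

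The PYHIN genes encode DNA-binding proteins and lie side by side on mouse chromosome 1, in a cluster whose gene content differs between inbred strains. All 4 members were higher in Mll1-/- cells in both conditions, where 6.71% of all measured genes were higher with TNF and 7.11% without. Ifi202b, Ifi209 and Ifi214 were measured through Mll1-/- cells only and so had to stand higher there. Ifi202b had 24.8 RPKM in Mll1-/- cells with TNF and 24.7 in their control, against 0.0398 and 0.0402 in wild-type cells with TNF and without. This is 860 and 890 reads, against 2 and 2 reads, a ratio of 623 with TNF (counting interval 172 to 5154) and 614 without (169.6 to 5082). Ifi209 had 2.46 and 2.71 RPKM in Mll1-/- cells, against 0.0818 and 0.0825 in wild-type cells, ratios of 30.1 (14.9 to 70.8) and 32.8 (16.3 to 77.1). Ifi214 had 25 and 34 reads in Mll1-/- cells, against 2 and 1 in wild-type cells, ratios of 18.1 (4.52 to 158) and 46.9 (7.88 to 1908). Ifi204, which was well expressed in both genotypes, had 37.9 and 34.1 RPKM in Mll1-/- cells, against 8.79 and 8.18 in wild-type cells, ratios of 4.32 (3.92 to 4.76) and 4.17 (3.77 to 4.61). No ratio for TNF of these 4 was 2-fold on the log2(RPKM + 0.5) scale in either genotype.

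The neighbours in the cluster, chosen after their values were seen, did not all follow. Between Aim2 and Ifi205 the RefSeq gene order holds 19 genes, of which 10 have a row here and 6 are no members. Mndal had 8.45 and 7.53 RPKM in Mll1-/- cells with TNF and without, against 4.41 and 4.48 in wild-type cells. Ifi211 had 29.3 and 27.6 RPKM in Mll1-/- cells, against 17.0 and 16.5 in wild-type cells. Ifi205 had 11.5 and 10.2 RPKM in Mll1-/- cells, against 8.71 and 8.79 in wild-type cells. Aim2, the inflammasome sensor of DNA at the cluster's edge, was lower, with 1.12 and 0.941 RPKM in Mll1-/- cells against 2.42 and 1.79 in wild-type cells. These genes are near copies, and the treatment of reads that match several of them is not stated in the labels, so their levels are uncertain.

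**Figure D5:**
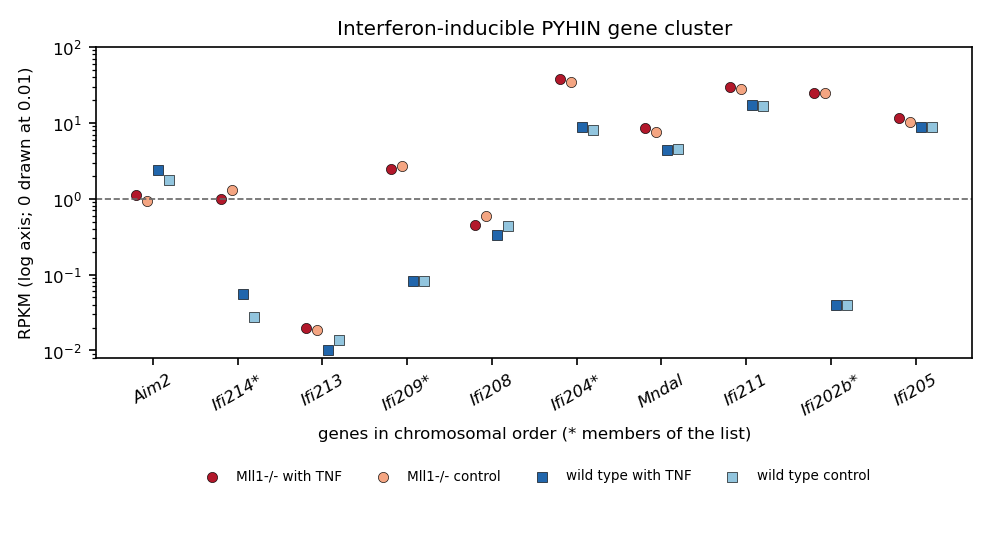
RPKM of the 10 PYHIN-cluster genes with a row, in gene order along chromosome 1 without distances, on a log axis, in the 4 libraries. Ifi202b, Ifi209 and Ifi214 are near the floor in both wild-type libraries, Ifi204, Mndal and Ifi211 are present in all 4, and Aim2 is higher in wild-type cells.

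Other genes of the pathway, from lists chosen with earlier results of these data known, give the surroundings of these members. Of 45 other interferon-stimulated genes 21 were measured, of which 1 was higher with TNF in Mll1-/- cells and 1 in wild-type cells, and 0 were lower in either. Among all measured genes 0.688% were higher with TNF in Mll1-/- cells and 0.521% in wild-type cells. Between genotypes, 1 of the 21 was higher in Mll1-/- cells with TNF and 6 were lower, and without TNF 0 were higher and 9 lower (median log2 -0.62 and -0.87, beside -0.05 and -0.07 over all measured genes). Of all measured genes 6.71% were higher and 4.5% lower with TNF, and 7.11% and 7.99% without. Ifit3b, Apobec3, Sp100, Helz2 and Slfn2 were measured through wild-type cells only and so had to be lower in Mll1-/- cells. Apobec3, a cytidine deaminase gene that restricts retroviruses, had 0.737 and 0.0810 RPKM in Mll1-/- cells with TNF and without, against 7.40 and 6.66 in wild-type cells. Ifitm1, whose protein blocks virus entry, had 10.8 and 5.89 RPKM in Mll1-/- cells, against 22.9 and 21.4 in wild-type cells. Ifitm3, of the same family, had 158 and 80.7 RPKM in Mll1-/- cells, against 232 and 215 in wild-type cells. Both are short, at 676 and 648 bases. Genes of 593 to 971 bases had a median log2 of 0.22 for TNF in Mll1-/- cells and -0.38 for genotype without TNF. Helz2, a helicase gene, was lower in Mll1-/- cells with TNF (0.0409 against 1.40 RPKM), and Ifi27 was higher (14.8 against 5.31). The highest ratio for TNF in wild-type cells was that of Slfn2 (2.74 RPKM with TNF and 0.942 without), and Trim21 followed (log2 0.85). At the low end for TNF were Oas1b (-0.26 in each genotype), Znfx1 (-0.22 in Mll1-/- cells) and Ifit3b (-0.33 in wild-type cells).

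Of 14 nucleic acid sensing genes 12 were measured, of which 3 were higher in Mll1-/- cells than in wild-type cells with TNF and 4 without, and 0 were lower (6.71% and 7.11% of all measured genes were higher). Mb21d1 and Zcchc3 were measured through Mll1-/- cells only and so had to be higher there. The counting interval lay above 1 for 6 and below 1 for 4 in each condition. Among all measured genes these shares were 30.8% and 38.8% with TNF, and 33.6% and 42.5% without. Tmem173, the gene of the STING adaptor, had 9.59 and 11.0 RPKM in Mll1-/- cells with TNF and without, against 0.870 and 1.08 in wild-type cells. Mb21d1, which encodes the DNA sensor cGAS, had 1.83 and 1.74 RPKM in Mll1-/- cells, against 0.125 and 0.0721 in wild-type cells. The lowest genotype ratios were those of Samhd1 (log2 -0.83 with TNF), Rnf135 (-0.68 with TNF) and Mavs (-0.78 without). With TNF, Ikbke, a kinase gene upstream of Irf3, was the 1 gene higher in each genotype, at 10.9 and 3.98 RPKM in Mll1-/- cells with TNF and without, against 6.09 and 1.71 in wild-type cells. Traf3 (log2 0.69 in wild-type cells) and Trex1 (0.49 in Mll1-/- cells) came next, and the lowest were Zc3hav1 (-0.40) and Zcchc3 (-0.27) in Mll1-/- cells and Tmem173 (-0.21) and Samhd1 (-0.05) in wild-type cells. By the 2-fold rule, 0.688% of all measured genes were higher with TNF in Mll1-/- cells and 0.521% in wild-type cells.

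Of 12 further feedback and receptor genes 9 were measured. None was higher or lower with TNF by the 2-fold rule in either genotype. In each condition 1 was lower in Mll1-/- cells, where 4.5% of all measured genes were lower with TNF and 7.99% without. That gene was Ptpn6, a phosphatase that dampens Janus kinase signalling, at 1.85 and 2.18 RPKM in Mll1-/- cells with TNF and without, against 5.64 and 6.36 in wild-type cells. Il10rb, a receptor chain shared with lambda interferon, had the highest ratio for TNF of the list, with log2 0.55 in Mll1-/- cells and 0.73 in wild-type cells. Among all measured genes 0.688% were higher with TNF in Mll1-/- cells and 0.521% in wild-type cells (median log2 0.02 and -0.02). Of 12 TNF response genes, chosen as known NF-kB targets and regulators, 11 were measured, and 6 were higher with TNF in Mll1-/- cells and 8 in wild-type cells (median log2 1.09 and 1.57). These genes were higher with TNF in the same libraries in which Isg15, Ifit1 and Rsad2 had at most 9 reads.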

How the data were processed

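RNA-seq of 4 MEF libraries was analysed, 1 per group, as grouped by the labels. The authors deposited RPKM, per the file headers, for 27344 transcript entries. The submitters' processing notes name TopHat and DESeq without versions. Build, annotation, counter and strand handling: not given in the sources used here. Whole read counts were recovered from the RPKM steps for 27343 entries, within 0.0001 reads. Where the lengths called for it, as for Ifi202b and Ifi204, reads were multiplied by a whole number (1227 entries). Entries were named by RefSeq (20849) or GENCODE (102), and 6393 stayed unnamed.

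Ratios used log2(RPKM + 0.5) over 14386 genes and unnamed entries with at least 1 RPKM in at least 1 library. Read ratios carry 95% Clopper-Pearson intervals, differences of log2 read ratios a normal interval, and 0 reads count as up to 3. Reads are not independent molecules, so these cover counting error only. The calculation was tested on simulated data. Python 3.11.15, pandas 2.3.3, numpy 2.4.6 and scipy 1.17.1 were used. All members are named, and of the other lists the 2 highest and 2 lowest ratios of a comparison, with some of these given for 1 comparison only. The members and lists were chosen with earlier results of these data known. Alternatives were other pseudocounts, filters, scalings, entries, a length correction and, chosen after seeing the data, reads without a pseudocount.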

Additional observations from a re-analysis of the deposited data

Results flagged for a closer look

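The TNF ratio of Bst2 lay above 1 in Mll1-/- cells and below 1 in wild-type cells, with 22 reads with TNF and 7 without in Mll1-/- cells, against 31 and 35 in wild-type cells. The counting interval of the wild-type ratio, 0.523 to 1.47, holds 1, so a lower level with TNF is not shown there. The difference in log2(RPKM + 0.5) response was 1.15, and in log2 reads it was 1.90 (counting interval 0.49 to 3.31). With 1 library per group the difference was not tested. The value rests on the 7 reads of the Mll1-/- control library.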

How the results depend on the processing

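Each group is 1 library, so culture-to-culture spread is unknown, leaving out a replicate could not be done, and intervals cover counting alone. No paired analysis was possible because each group is 1 library. Of 1365 recomputed member values, 1280 moved by less than their counting interval reaches to 1 side in log2, and 85 moved further. Among the values past the 2-fold rule, 0 changed direction. Changes of sign among smaller values were not counted. With a minimum of 3 RPKM the members higher with TNF in Mll1-/- cells came to 1 in place of 3, those higher in Mll1-/- than in wild-type cells to 3 in place of 5 in each condition, and those with a larger response in Mll1-/- cells to 0 in place of 1, since fewer genes were counted. That last count was also 0 with a pseudocount of 1 RPKM (Bst2 0.83) and with the length trend removed (Bst2 0.90), and 2 with no filter, which adds Gbp3. The members with a smaller response in Mll1-/- cells came to 2 with a pseudocount of 0.1 RPKM and to 3 with reads and no pseudocount, in place of 1. Cxcl10 joined them at -1.08 and -1.22, and Ifi214 at -1.37 with reads. Samd9l went to -0.92 with the length trend removed, where Cxcl10 was at -1.03. Bst2 with TNF in Mll1-/- cells went below 1 in 4 settings (0.72 to 0.97), and its genotype ratio without TNF came to between -0.95 and -0.69 in 3. Jak2 with TNF went to -0.95 with the 20 most abundant genes left out, Ifi214 with TNF to 0.92 with a pseudocount of 1 RPKM, Gbp2 without TNF to 1.11 and 1.38 with a pseudocount of 0.1 RPKM and with reads, and Ddx58 for TNF in wild-type cells to 1.01 with reads. Leaving out the 20 most abundant genes moved the median of all genes by -0.15 for TNF in Mll1-/- cells, by 0.28 for genotype without TNF and by 0.10 with TNF. Transcript length moved with the ratios: in Mll1-/- cells the median log2 TNF ratio was 0.31 among the shortest genes and -0.20 among the longest, where wild-type cells had -0.01 and 0.03. For Mll1-/- over wild type it was -0.17 and 0.01 with TNF, and -0.53 and 0.25 without.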

Other observations

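The transcript entries of a gene did not always give the same ratio for TNF. The chosen Ifnar2 entry of 1169 bases had log2 ratios of 0.49 in Mll1-/- cells and 0.20 in wild-type cells. Its other entry, of 3051 bases, had 15.2 and 11.3 RPKM in Mll1-/- cells with TNF and without, against 14.0 and 10.4 in wild-type cells, a log2 ratio of 0.41 in each genotype. The 3 entries of Irf1 lay between 0.32 and 0.36 in Mll1-/- cells and between 0.58 and 0.70 in wild-type cells.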
